A study of Homo sapiens with 36 samples.

Results

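The comparison set A549 cells kept in culture for 3 weeks against A549 cells kept for 1 week, both without cigarette smoke extract (CSE). A549 is an established human cell line from a lung adenocarcinoma with features of the alveolar type II cell, the surfactant-producing cell of the alveolus. The 3 arrays titled Ctrl 3 weeks and the 3 arrays titled Ctrl 1 week were taken, 6 of the 36 arrays of the study, and 18417 genes that the array annotation names by a single symbol were compared between them. The remaining arrays held Ctrl cells at 5 weeks and cells given CSE at 1%, 5% or 10% for 1, 3 or 5 weeks, 3 arrays in each group. Both control groups had spent a day without serum when mostly confluent and then received DMEM with 1% fetal bovine serum and no CSE. The protocol states a daily change of the CSE medium, and says nothing of that of the controls. The 1-week cultures stayed in their dishes for that week, whereas the 3-week cultures were passed at a set cell number from week to week, so culture time and the number of passages cannot be told apart. Total RNA was extracted with Trizol and hybridized to Affymetrix Human Gene 1.0 ST arrays, which carry probes along the whole transcript. The titles call the arrays of a group biological replicates and the methods speak of individual experiments. A549 is a single tumour line, and whole cultures were lysed, so fewer cells of a kind and less RNA per cell cannot be told apart.

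Each gene has 1 log2 RMA value per array, a probe-set summary after background correction and normalization, in which a difference of 1 is a 2-fold change. The 6 arrays correlated at 0.973 or above with each other. One array stood apart: Ctrl 1 week replicate 3 had a score of -57.9 on the first principal component of the 6 arrays (55.1% of the variance), against -2.91 and -20.9 for the other 1-week arrays and 23.0 to 35.0 for the 3-week arrays. The same array had lower values for 40 genes with very long mRNAs outside the cell cycle lists, whose mean was 8.81, 8.39 and 8.71 in Ctrl 3 weeks cells and 8.80, 8.47 and 7.93 in Ctrl 1 week cells. The counts of calls and of called differences, most list counts and the time changes of single genes were repeated without this array. The single differences against CSE cells, the overlaps, the correlations across genes and the promoter shares were not. As for the cell type, 13 markers of lung epithelial lines averaged 10.9 on each of the 6 arrays, and KRT8 and KRT18, the simple-epithelium keratins, read 13.55 and 13.47 at 3 weeks and 13.42 and 13.34 at 1 week on average. Of 18 alveolar type II genes 1 passed the test, SFTPC, the surfactant protein C gene (5.85, 6.07 and 5.98 at 3 weeks, 6.11, 6.30 and 6.70 at 1 week), which no longer passed without Ctrl 1 week replicate 3 (adjusted p = 0.285) or without Ctrl 3 weeks replicate 1 or 3. Among markers of other cell types, 11 fibroblast markers averaged 5.39 to 5.48 at 3 weeks and 5.52 to 5.61 at 1 week, 10 leukocyte markers averaged 5.78 to 5.85 at 3 weeks and 5.99 to 6.04 at 1 week, and 8 endothelial markers averaged 5.64 to 5.70 at 3 weeks and 5.68 to 5.82 at 1 week. The first 2 lists were slightly lower at 3 weeks, and their part in the results was not tested. The leukocyte gene PTPRC read 3.72, 3.83 and 3.63 at 3 weeks and 3.69, 3.78 and 3.91 at 1 week, where deposited values ran between 2.29 and 14.5. The array files give no detection call, so a low value does not show absence.

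Cells that divide pass from G1 to S phase when cyclin-dependent kinases inactivate the retinoblastoma proteins and release E2F factors, which switch on genes for DNA replication. Later in the cycle the B-MYB and FOXM1 complexes switch on the genes of mitosis. A separate programme, run by the transcription factor ATF4, is switched on when amino acids run short or the endoplasmic reticulum is stressed, and drives genes for serine, glycine and asparagine synthesis and for tRNA charging. In lung epithelial lines the sterol pathway, which makes cholesterol and fatty acids under the SREBP factors, and the aryl hydrocarbon receptor, which answers to components of smoke, are further programmes that culture conditions can move.

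Genes of DNA replication and mitosis were higher at 3 weeks, and genes of the ATF4 amino acid response were lower. With a call defined as a log2 fold change beyond 1 together with B, limma's log odds of a difference, above 0, 212 genes were higher in Ctrl 3 weeks cells than in Ctrl 1 week cells, 1.15% of the genes tested, and 71 were lower, 0.386%. For all 283 called genes the 3 arrays at 3 weeks lay on one side of the 3 arrays at 1 week, as they did in either direction for 25.6% of all genes tested, and the calls rest on the same difference. At the weaker rule used below for single genes and lists, a Benjamini-Hochberg adjusted p under 0.05, 1201 genes rose (6.52%) and 1040 fell (5.65%), with a median log2 fold change over all genes of -0.02. Without Ctrl 1 week replicate 3 the calls were 194 higher and 75 lower.

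**Figure D1:**
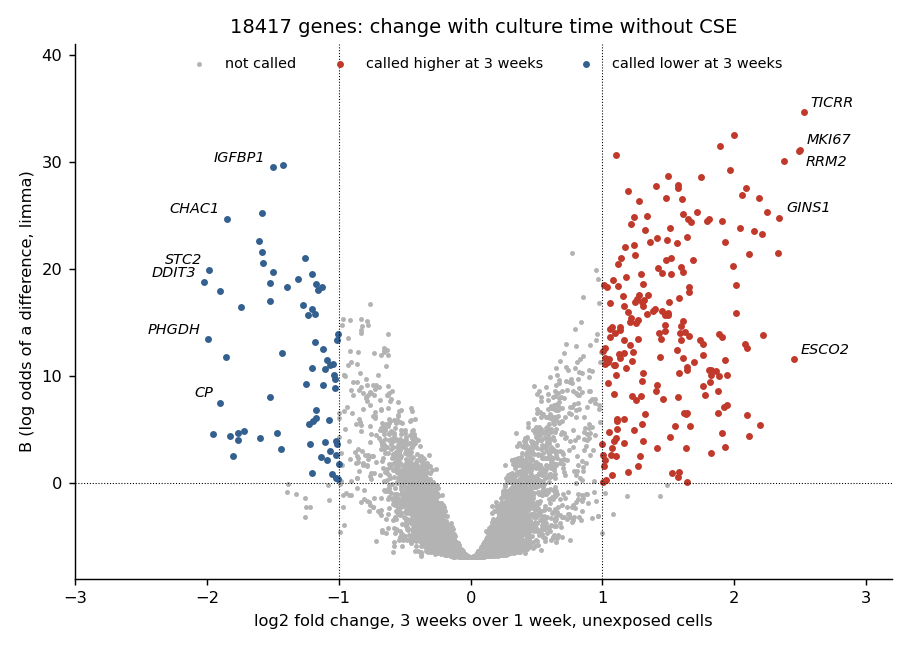
Log2 fold change of each of 18417 genes (3 weeks over 1 week in unexposed cells, horizontal axis) against B, limma's log odds of a difference (vertical axis), with dotted lines at the thresholds for a call. The 212 genes called higher reach a log2 fold change of 2.53 (TICRR) and the 71 called lower reach -2.03 (DDIT3).

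Genes of the cell cycle made up most of what was higher. Of 253 genes in the cell cycle lists, 123 were called higher and 0 lower, which left 89 of the 212 called genes outside those lists. Those lists were drawn up after the values were seen, except G1/S, mitosis and replication-dependent histones, which were written with earlier results known. Their counts are therefore not an independent result. At an adjusted p under 0.05, 175 of the 253 rose and 4 fell. In the list for DNA replication and G1/S 32 of 32 measured members rose, with a median log2 fold change of 1.20, and in the list for mitosis and G2/M 31 of 31 rose, with a median of 1.60. Their mean level on each array was 8.82, 8.83 and 8.70 at 3 weeks and 7.51, 7.44 and 7.45 at 1 week for G1/S, and 9.33, 9.13 and 9.33 at 3 weeks and 7.65, 7.63 and 7.56 at 1 week for mitosis. The order of the 2 groups was the same on every array in both lists.

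Promoters of several of these genes that moved together are shown, each of them with a match. The sequences are from RefSeq (GRCh38.p14), 250 bases before to 50 after the annotated start, read 5′ to 3′ on the strand of the gene. Capitals mark matches to the E2F motif TTTNNCGC for CDC6 (chr17:40287629-40287928, plus strand) and MCM6 (chr2:135876394-135876693, minus strand), and matches to the CHR motif TTTGAA and the CCAAT box for CDK1 (chr10:60778081-60778380, plus strand). Both strands were searched for each motif.
CDC6: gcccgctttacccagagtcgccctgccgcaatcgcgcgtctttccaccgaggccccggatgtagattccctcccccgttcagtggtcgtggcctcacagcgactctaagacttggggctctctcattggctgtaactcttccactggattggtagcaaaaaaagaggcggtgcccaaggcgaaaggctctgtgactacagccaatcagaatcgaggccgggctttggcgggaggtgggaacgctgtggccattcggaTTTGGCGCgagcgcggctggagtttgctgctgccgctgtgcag
MCM6: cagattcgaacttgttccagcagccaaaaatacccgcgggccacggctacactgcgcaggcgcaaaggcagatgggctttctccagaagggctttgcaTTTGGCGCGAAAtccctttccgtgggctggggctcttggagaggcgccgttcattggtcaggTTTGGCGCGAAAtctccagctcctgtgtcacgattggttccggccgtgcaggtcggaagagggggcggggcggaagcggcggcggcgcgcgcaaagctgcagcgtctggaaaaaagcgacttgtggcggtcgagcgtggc
CDK1: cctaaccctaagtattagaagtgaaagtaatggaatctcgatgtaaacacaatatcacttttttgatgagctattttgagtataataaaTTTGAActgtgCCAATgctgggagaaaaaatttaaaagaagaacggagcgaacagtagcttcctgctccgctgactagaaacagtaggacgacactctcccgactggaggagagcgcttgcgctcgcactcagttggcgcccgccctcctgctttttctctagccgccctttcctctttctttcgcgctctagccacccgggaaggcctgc
CDC6 has 1 match, and MCM6 has 2 runs in which a forward match and a reverse-strand match overlap. In CDK1 the CHR match lies just ahead of the CCAAT box. Of 28 G1/S list genes with a promoter in the table, 17 held an E2F match (60.7%), against 8.95% of 14239 promoters. Of 25 mitosis list genes, 16 held a CHR match (64.0%) and 22 a CCAAT box (88.0%), against 11.9% and 36.3% of all promoters. RRM2 had no E2F match and KIF20A no CHR match in this window. The matches describe letters in a window and were not tested as binding sites.

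Genes that prepare and fire replication origins were among those with the largest increases. TICRR, which helps to load CDC45 onto the helicase at origins, read 9.90, 10.09 and 9.69 in Ctrl 3 weeks cells, against 7.42, 7.32 and 7.35 in Ctrl 1 week cells. Its log2 fold change was 2.53 ± 0.11 (SE), a 5.76-fold rise with an adjusted p of 2.13e-15. CDC6, which loads the MCM helicase at licensed origins, read 9.89, 10.00 and 9.80 at 3 weeks and 7.79, 7.43 and 7.48 at 1 week (log2 fold change 2.33 ± 0.17, adjusted p = 5.29e-11). The lowest value at 3 weeks lay at least 2 log2 units above the highest at 1 week in TICRR and in CDC6. GINS1 (2.34 ± 0.15) and GINS2 (2.21 ± 0.15), subunits of the GINS complex of the moving helicase, rose as well, and CDC45, their partner, had a smaller fold change (1.64 ± 0.11). The MCM subunits stood below CDC45: MCM3 rose by 1.20 ± 0.07, MCM4 by 1.52 ± 0.11, MCM5 by 1.50 ± 0.14, MCM6 by 1.52 ± 0.10, MCM7 by 1.12 ± 0.09 and MCM2, the one below the call, by 0.98 ± 0.12. ORC1, the subunit of the origin recognition complex that varies over the cycle, rose by 1.61 ± 0.10. Over 29 genes of licensing and helicase, a list drawn up after the values were seen, 24 rose and 0 fell, with a median of 1.29.

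Supply of nucleotides and copying of DNA followed the same direction. RRM2, the regulated subunit of ribonucleotide reductase, read 9.93, 9.81 and 9.73 at 3 weeks and 7.63, 7.25 and 7.12 at 1 week, a 5.61-fold difference (log2 2.49 ± 0.12, adjusted p = 2.54e-14). TYMS, thymidylate synthase, rose 3.36-fold and TK1, thymidine kinase, 3.15-fold. In the list of 12 nucleotide supply genes 6 rose, 1 fell and 5 did not pass. Of 21 DNA polymerase and clamp loader genes 19 rose and 1 fell (median 0.78), with POLE2, a subunit of the leading-strand polymerase, at 1.47 ± 0.15. PCNA, the sliding clamp, rose by 0.64 ± 0.09. TOP2A, the topoisomerase that untangles sister DNA, rose by 1.70 ± 0.20.

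**Figure D2:**
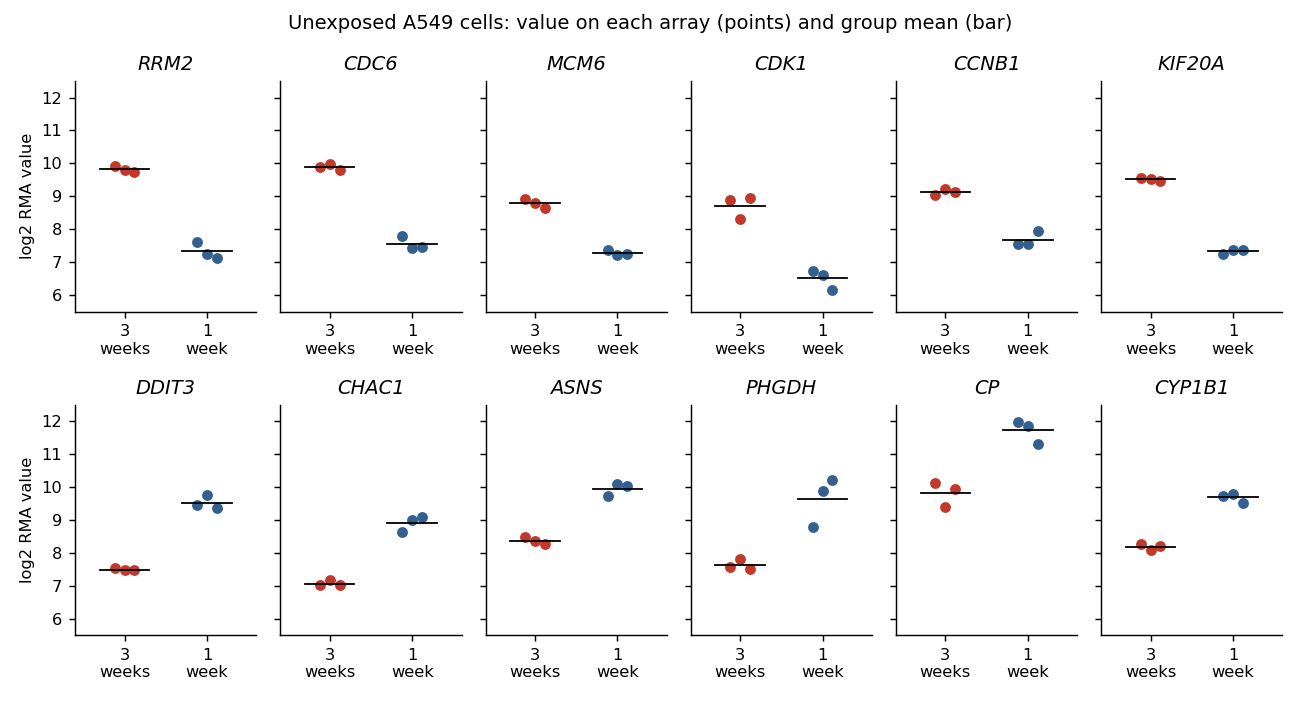
Log2 RMA value of 12 genes on each Ctrl 3 weeks array (left in each panel) and each Ctrl 1 week array (right), with bars for the group means of 3 arrays. In the upper row the 3-week arrays lie above the 1-week arrays for each gene, and in the lower row they lie below.

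Among the regulators of the cycle, the kinases and cyclins of S phase and mitosis rose, while CDK4 and CDK6, the kinases of G1, did not pass the test. CDK1, the kinase that starts mitosis, read 8.90, 8.31 and 8.96 at 3 weeks and 6.73, 6.62 and 6.17 at 1 week (log2 2.21 ± 0.23, adjusted p = 4.21e-08). CDK2, the kinase of S phase, rose by 1.24 ± 0.08, whereas CDK4 had a log2 fold change of 0.03 ± 0.11 (adjusted p = 0.894) and CDK6 of 0.28 ± 0.20 (adjusted p = 0.412). Cyclin changes ran from 0.43 ± 0.07 for CCND1 and 0.62 ± 0.10 for CCND3, the G1 cyclins, over 1.01 ± 0.09 for CCNE1 and 1.82 ± 0.22 for CCNE2, to 1.58 ± 0.14 for CCNA2 and 1.45 ± 0.12 and 1.67 ± 0.11 for the mitotic cyclins CCNB1 and CCNB2. These 7 cyclins rose, as did 8 of the 12 in the list. CDKN1B, the inhibitor p27, fell by 0.35 on the log2 scale (10.32, 10.05 and 10.27 at 3 weeks, 10.59, 10.57 and 10.51 at 1 week), and it was the 1 of 6 kinase inhibitors to pass the test, which it did not without Ctrl 3 weeks replicate 2 (adjusted p = 0.0539). CDKN1A, the p53-induced inhibitor p21, had a log2 fold change of -0.26 ± 0.14 with overlapping arrays. In the list for the E2F and retinoblastoma families, which also holds MYBL2, the gene of B-MYB, 10 of 19 rose. MYBL2 rose by 2.25 ± 0.14, E2F8 by 1.52 ± 0.12, E2F7 by 1.35 ± 0.12, RBL1 by 1.26 ± 0.11 and E2F1 by 0.51 ± 0.10. FOXM1, the partner of B-MYB in G2, rose 4.25-fold (9.88, 10.06 and 9.64 at 3 weeks, 7.61, 7.74 and 7.96 at 1 week).

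Mitotic genes formed the other large block. MKI67, the proliferation antigen Ki-67, read 10.53, 10.46 and 10.28 at 3 weeks and 8.02, 8.06 and 7.70 at 1 week (log2 2.50 ± 0.12, adjusted p = 2.54e-14). KIF20A, a kinesin of the central spindle, read 9.56, 9.53 and 9.46 at 3 weeks and 7.26, 7.36 and 7.37 at 1 week, with a log2 fold change of 2.18 ± 0.13. All 13 mitotic kinesins rose (median 1.57), KIF11, the motor that separates the spindle poles, by 2.10 ± 0.23. All 14 genes of the chromosomal passenger complex and the mitotic kinases rose (median 1.34), among them PLK1 (1.50 ± 0.14) and AURKA (1.43 ± 0.11). Of 10 spindle checkpoint genes 9 rose (median 1.60), led by BUB1 (2.11 ± 0.16), and of 31 kinetochore genes 24 rose (median 1.25), with CENPI, a subunit of the inner kinetochore, at 2.15 ± 0.15. ASPM, which organizes spindle poles, rose by 2.11 ± 0.36, and STMN1, which takes microtubules apart, by 1.57 ± 0.09.

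Genes that hold, fold and repair chromosomes were less uniform. ESCO2, which acetylates cohesin in S phase, read 8.99, 8.71 and 9.22 at 3 weeks and 6.77, 6.75 and 6.05 at 1 week (log2 2.45 ± 0.28, adjusted p = 3.21e-07). Of the 12 cohesin genes, however, only 3 passed the test, all as increases, while 6 of 8 condensin genes rose. SMC4, the core condensin subunit, had a log2 fold change of 0.61 ± 0.33 (adjusted p = 0.277) with Ctrl 1 week replicate 3 the lowest of the 6 arrays. In the Fanconi anaemia and recombination list 14 of 21 rose, with FANCI at 2.00 ± 0.09 and BRCA1 at 1.60 ± 0.17. DTL, which directs the destruction of licensing factors in S phase, rose 5.2-fold, and FAM111B, a protease-like gene of S phase, 4.58-fold. Histone genes were mixed: of 24 replication-dependent histones 8 rose and 1 fell. H1-5, a linker histone, had a log2 fold change of 1.62 ± 0.24 and H4C8, the one that fell, of -0.60 ± 0.10. Messages of these histones lack a poly(A) tail and near-identical copies share probes, so single members are uncertain. MIR15B, the gene of miR-15b inside an intron of SMC4, was the 1 microRNA gene of 173 called higher (5.96, 6.00 and 5.75 at 3 weeks, 5.21, 5.12 and 4.35 at 1 week, log2 1.01 ± 0.20). Without Ctrl 1 week replicate 3 its log2 fold change was 0.74 ± 0.19 and the call was lost, as it also was without Ctrl 3 weeks replicate 1 (0.98) or 2 (0.96). Its mature 5p form is given because microRNAs pair with targets by the seed, bases 2 to 8, in capitals (RefSeq, GRCh38.p14, chr3:160404607-160404628, plus strand).
hsa-miR-15b-5p: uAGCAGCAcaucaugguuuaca
The array probes the precursor locus, so the mature form was not measured.

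The ATF4 amino acid response ran the other way. Of 22 measured genes of this list 17 fell and 0 rose, with a median log2 fold change of -0.80, and 10 of the 71 called lower belonged to it. DDIT3, the stress factor CHOP, had the largest fall of all called genes: it read 7.54, 7.48 and 7.48 in Ctrl 3 weeks cells and 9.45, 9.77 and 9.35 in Ctrl 1 week cells, 4.07-fold lower (log2 -2.03 ± 0.17, adjusted p = 5.33e-10). CHAC1, which breaks down glutathione, read 7.02, 7.18 and 7.03 at 3 weeks and 8.65, 9.02 and 9.09 at 1 week (log2 -1.85 ± 0.12). ASNS, asparagine synthetase, read 8.48, 8.36 and 8.27 at 3 weeks and 9.74, 10.08 and 10.02 at 1 week (log2 -1.58 ± 0.12, adjusted p = 1.16e-10). The 2 groups did not overlap in any of the 3 genes, as in all 283 called genes and in 25.6% of all genes. ATF4 itself, which is controlled largely at translation, fell by 0.66 on the log2 scale (10.70, 10.70 and 10.64 at 3 weeks, 11.22, 11.29 and 11.51 at 1 week).

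The promoters of CHAC1 (chr15:40953221-40953520, plus strand) and ASNS (chr7:97872359-97872658, minus strand) are printed because both fell and both hold the C/EBP-ATF response element TGATGNAA, here in capitals, from the same RefSeq table.
CHAC1: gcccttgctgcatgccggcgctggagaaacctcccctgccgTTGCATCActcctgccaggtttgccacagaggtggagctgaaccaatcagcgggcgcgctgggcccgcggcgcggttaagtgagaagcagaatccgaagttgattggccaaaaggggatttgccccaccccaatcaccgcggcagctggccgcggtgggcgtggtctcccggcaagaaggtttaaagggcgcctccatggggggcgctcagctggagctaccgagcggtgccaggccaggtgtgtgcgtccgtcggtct
ASNS: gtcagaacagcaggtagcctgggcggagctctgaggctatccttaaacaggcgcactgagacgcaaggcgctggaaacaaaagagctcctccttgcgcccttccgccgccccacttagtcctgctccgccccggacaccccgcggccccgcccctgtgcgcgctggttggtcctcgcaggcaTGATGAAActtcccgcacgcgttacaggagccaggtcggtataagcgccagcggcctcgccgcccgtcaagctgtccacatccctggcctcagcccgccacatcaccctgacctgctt
The element is on the reverse strand in CHAC1 and on the forward strand in ASNS. It stood in 4 of 17 promoters of the ATF4 list (23.5%) and in 6 of 16 promoters of tRNA synthetases (37.5%), against 2.54% of all 14239. Of the promoters of members that fell it stood in 2 of 13 for the ATF4 list (15.4%) and in 5 of 8 for the synthetases (62.5%). The synthetase list was drawn up after the values were seen, so its shares are not an independent result. Among the promoters of genes called lower the element stood in 6 of 40. DDIT3, SESN2, TRIB3, PSAT1, STC2 and PHGDH had no match in this window, which says nothing of sites elsewhere.

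Within the serine pathway the first enzymes had the largest fold changes. PHGDH, the entry enzyme of serine synthesis, read 7.57, 7.81 and 7.53 at 3 weeks and 8.78, 9.87 and 10.23 at 1 week (log2 -1.99 ± 0.21, adjusted p = 6.29e-08), and the 1-week arrays were more scattered than the 3-week arrays. PSAT1, the next enzyme, fell by 1.52 on the log2 scale (mean 8.58 at 3 weeks and 10.11 at 1 week). The mitochondrial folate enzymes followed: ALDH1L2 had a log2 fold change of -1.11 ± 0.13, MTHFD2 of -0.93 ± 0.10 and SHMT2 of -0.47 ± 0.12, which did not pass without Ctrl 1 week replicate 3 (adjusted p = 0.0985). The cytosolic folate enzymes went the opposite way, SHMT1 by 0.90 ± 0.11, MTHFD1 by 0.61 ± 0.09 and TYMS, named above, by 1.75 ± 0.10. Of the 15 serine, glycine and one-carbon enzymes, a list drawn up after the values were seen, 8 fell and 3 rose. PCK2, the mitochondrial carboxykinase, fell by 1.60, and STC2, a secreted glycoprotein induced by stress, by 1.98 on the log2 scale.

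Genes that restrain growth signalling under ATF4 were also lower. SESN2, an inhibitor of mTORC1, read 6.74, 6.98 and 6.67 at 3 weeks and 8.12, 8.44 and 8.38 at 1 week, and DDIT4, another inhibitor of that kinase, 9.60, 9.43 and 9.51 at 3 weeks and 10.81, 10.85 and 10.80 at 1 week. TRIB3, a pseudokinase that feeds back on ATF4, had a log2 fold change of -1.04 ± 0.12. Of 19 cytosolic tRNA synthetases, a list drawn up after the values were seen, 9 fell and 1 rose. Among those that fell, CARS1 had -1.17 ± 0.10, YARS1 -0.91 ± 0.12 and SARS1 -0.86 ± 0.10. FARSB, the one that rose, had 0.26 ± 0.08. It no longer passed without any one of 4 arrays, among them Ctrl 3 weeks replicate 1 (adjusted p = 0.0953). The 3 transporters of the ATF4 list did not pass the test: SLC7A11, the cystine importer, had -0.13 ± 0.20, SLC7A5 -0.09 ± 0.11 and SLC3A2, their shared heavy chain, -0.12 ± 0.09. Of 18 measured amino acid transporters, a list drawn up after the values were seen, 3 rose and 3 fell, from SLC6A9, a glycine transporter, at -0.96 ± 0.14 to SLC36A4, a proton-coupled transporter, at 0.66 ± 0.20. HSPA5, the chaperone that marks stress of the endoplasmic reticulum, had a log2 fold change of -0.05 ± 0.07 (adjusted p = 0.718), and in the list of 16 such chaperones 2 rose and 2 fell.

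**Figure D3:**
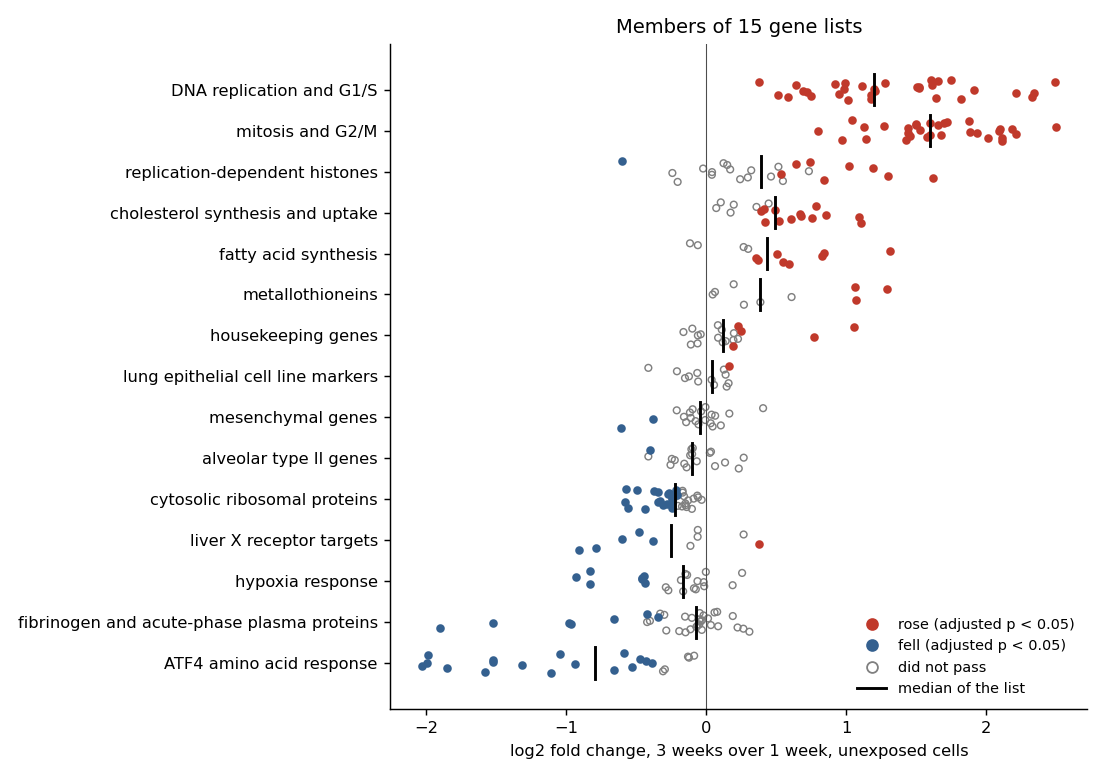
Log2 fold change (3 weeks over 1 week, unexposed cells) of the members of 15 gene lists, with filled points for genes at an adjusted p under 0.05, open points for the others and a bar for the list median. G1/S (median 1.20) and mitosis (1.60) lie wholly to the right of 0 and the ATF4 amino acid response (-0.80) wholly to the left.

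Lipid synthesis was moderately higher. Of 19 genes of cholesterol synthesis and uptake 13 rose and 0 fell (median 0.49), and of 12 genes of fatty acid synthesis 8 rose and 0 fell (median 0.44). HMGCS1, the synthase ahead of HMG-CoA reductase, read 11.12, 10.86 and 10.86 at 3 weeks and 10.13, 9.82 and 9.61 at 1 week (log2 1.09 ± 0.13), and ACAT2, the first enzyme of the route, 9.67, 9.67 and 9.63 at 3 weeks and 8.92, 8.43 and 8.31 at 1 week. FASN, fatty acid synthase, read 10.33, 10.77 and 9.90 at 3 weeks and 8.99, 8.89 and 9.18 at 1 week (log2 1.31 ± 0.16). INSIG1, the sterol sensor that holds SREBP back, rose by 0.86 ± 0.08, SQLE, squalene epoxidase, by 0.79 ± 0.11, FADS2, a desaturase, by 0.84 ± 0.08 and ELOVL6, an elongase, by 0.83 ± 0.19. SCD, the stearoyl-CoA desaturase, had 0.27 ± 0.09 (adjusted p = 0.0564) and SREBF2, the master factor of the cholesterol genes, 0.20 ± 0.11 (adjusted p = 0.297), so neither passed. The sterol response motif TCACNCCAC, searched on both strands, stood in 1 of 17 cholesterol gene promoters (5.88%) and in 0 of 11 fatty acid gene promoters, against 1.14% of all promoters. Of the promoters of members that rose it stood in 0 of 11 for cholesterol genes and in 0 of 7 for fatty acid genes. Among the promoters of genes called higher it stood in 1 of 171. In a fit of the 6 arrays alone 7 of the 19 cholesterol genes and 5 of the 12 fatty acid genes rose.

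Genes that export cholesterol moved against that. Of 10 targets of the liver X receptors, the sensors of excess sterol, 5 fell and 1 rose. ABCA1, the main cholesterol exporter, read 5.69, 5.71 and 5.65 at 3 weeks and 6.63, 6.73 and 6.42 at 1 week, ABCG1, its partner, had a log2 fold change of -0.79 ± 0.11, and NR1H3, the receptor LXR alpha, of -0.60 ± 0.08. LPCAT3, which remodels membrane lipids, was the member that rose (0.38 ± 0.10), with an adjusted p of 0.0538, 0.0513 and 0.0755 without Ctrl 1 week replicate 2, Ctrl 3 weeks replicate 1 and Ctrl 3 weeks replicate 2. TFRC, the transferrin receptor, which takes up iron, rose 2.07-fold (11.27, 11.10 and 10.87 at 3 weeks, 10.24, 10.01 and 9.81 at 1 week).

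Of 9 metallothionein genes, which bind zinc and copper, 3 rose and the other 6 did not pass. MT2A read 11.85, 12.19 and 12.13 at 3 weeks and 10.90, 11.08 and 11.01 at 1 week (log2 1.06 ± 0.21), MT1X had a log2 fold change of 1.29 ± 0.25 and MT1F of 1.07 ± 0.24. Metallothionein genes are near-identical copies, so their probes may share signal. The promoter of MT2A (RefSeq, GRCh38.p14, chr16:56608334-56608633, plus strand) is shown with matches to the core of the metal response element, TGCACNC, in capitals on either strand.
MT2A: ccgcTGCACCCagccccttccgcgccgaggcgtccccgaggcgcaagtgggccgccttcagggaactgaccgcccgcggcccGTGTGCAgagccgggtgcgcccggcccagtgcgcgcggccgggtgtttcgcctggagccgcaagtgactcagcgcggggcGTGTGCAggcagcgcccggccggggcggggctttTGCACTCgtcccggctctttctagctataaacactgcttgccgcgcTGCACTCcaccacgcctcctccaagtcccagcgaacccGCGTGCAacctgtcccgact
It holds 6 matches, and each of the 5 metallothionein promoters in the table holds at least 1, against 11.8% of all promoters.

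The aryl hydrocarbon receptor pathway split. CYP1B1, a receptor target that oxidizes steroids and smoke hydrocarbons, read 8.28, 8.08 and 8.20 in Ctrl 3 weeks cells and 9.73, 9.80 and 9.53 in Ctrl 1 week cells, 2.83-fold lower (log2 -1.50 ± 0.12, adjusted p = 2.43e-10). TIPARP, a feedback inhibitor of the receptor, fell too (9.17, 9.08 and 9.22 at 3 weeks, 9.93, 9.87 and 9.96 at 1 week). CYP1A1, the classical target, did not pass the test (5.67, 5.47 and 5.73 at 3 weeks, 5.69, 5.41 and 5.77 at 1 week, adjusted p = 0.998), AHR had a log2 fold change of -0.27 ± 0.16 that did not pass, and NQO1, a quinone reductase, rose by 0.17 ± 0.05 but did not pass without any one of 4 of the 6 arrays (adjusted p = 0.0743 to 0.0941). Of 8 measured genes of the pathway 1 rose and 2 fell. CYP3A5, a drug-oxidizing enzyme of lung and liver, fell by 1.20 on the log2 scale (8.14, 7.52 and 8.34 at 3 weeks, 9.34, 9.36 and 8.89 at 1 week).

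Single genes of secreted, membrane and metabolic proteins are given next gene by gene, chosen after their values were seen. CP, ceruloplasmin, the copper oxidase of plasma, read 10.13, 9.39 and 9.95 at 3 weeks and 11.98, 11.86 and 11.32 at 1 week (log2 -1.90 ± 0.27, adjusted p = 1.16e-05). The fibrinogen chains fell together, FGG by 1.52, FGB by 0.98 and FGA by 0.96 on the log2 scale, though 28 of 35 plasma protein genes in the list did not pass. TCN1, a carrier of vitamin B12, averaged 5.30 ± 0.03 at 3 weeks and 7.20 ± 0.20 at 1 week (SD, 3 arrays each), 3.73-fold lower. DHRS9, a retinol dehydrogenase, had a log2 fold change of -1.74 ± 0.16, IL20RB, a cytokine receptor subunit, of -1.58 ± 0.10, ABI3BP, a matrix protein, of -1.58 ± 0.12, TSPAN1, a tetraspanin, of -1.20 ± 0.10 and AQP3, a water and glycerol channel, of -1.16 ± 0.10. IGFBP1, a binding protein of insulin-like growth factors, read 11.19, 11.15 and 10.90 at 3 weeks and 12.60, 12.65 and 12.49 at 1 week, with one of the highest B values among the lower genes. The arrays of the 2 groups stayed apart in each of these genes. That held for all 283 called genes and for 25.6% of all genes, so it is no separate result.

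Growth factor, hypoxia and mucin genes fell in part. HBEGF, a ligand of the EGF receptor, read 7.54, 7.47 and 7.45 at 3 weeks and 8.61, 8.99 and 9.03 at 1 week, and 5 of 12 EGF receptor and ligand genes fell. Of 21 hypoxia response genes 7 fell, with NDRG1 at -0.93 ± 0.11, VEGFA, the vascular growth factor, at -0.83 ± 0.08 and EGLN3, an oxygen-sensing hydroxylase, at -0.83 ± 0.08, and 14 did not pass. Of 18 mucin, trefoil and CEACAM genes 4 fell, among them TFF1 (-0.95 ± 0.12), MUC16 (-0.85 ± 0.11) and CEACAM5 (-0.66 ± 0.07). TXNIP, an arrestin that is induced by glucose, fell by 0.70 and CXCL8, the neutrophil chemokine, by 0.83 on the log2 scale. Genes called higher outside the cell cycle, lipid and metal lists included NR4A3, an immediate early nuclear receptor (1.02 ± 0.11), with its relative NR4A1 at 0.54 ± 0.11, OAS3, an interferon-induced enzyme (1.06 ± 0.11), and COL12A1, a fibril-associated collagen (1.02 ± 0.12). OAS3 was the single gene of 37 interferon-stimulated genes that rose, and COL12A1 the single one of 20 collagens. Just past the threshold of 1, NR4A3 and COL12A1 lost the call without Ctrl 1 week replicate 3 (0.94 and 0.88), Ctrl 3 weeks replicate 1 (0.92 and 0.98) or Ctrl 3 weeks replicate 2 (0.96 and 0.98), and OAS3 without the last of these (0.94).

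Most genes the study followed for a change toward a mesenchymal state did not pass the test for time alone. VIM, vimentin, had a log2 fold change of -0.10 ± 0.08, CDH2, neural cadherin, of 0.11 ± 0.10, FN1, fibronectin, of 0.18 ± 0.10, CDH1, epithelial cadherin, of -0.06 ± 0.08, MMP2 of -0.18 ± 0.12 and MMP9 of -0.15 ± 0.09, and none of these passed the test. ITGAV (-0.36 ± 0.22) and ITGB6 (0.17 ± 0.15), the integrin chains that activate latent TGF-beta, did not pass either, nor did TGFB1 (-0.35 ± 0.15). MMP7, matrilysin, fell by 1.02 (9.37, 8.88 and 9.91 at 3 weeks, 10.50, 10.44 and 10.25 at 1 week), and TGFB2 (0.45 ± 0.11) and CCL2, a monocyte chemokine (0.60 ± 0.15), rose. Of 20 mesenchymal genes 2 fell, ACTA2, smooth muscle actin (-0.61 ± 0.11), and S100A4, a calcium-binding protein (-0.38 ± 0.11), and the median of the list was -0.05. S100A4 did not pass without Ctrl 1 week replicate 3 (adjusted p = 0.147) or without Ctrl 3 weeks replicate 1 or 2, nor CCL2 without Ctrl 3 weeks replicate 3 (adjusted p = 0.0596), where FN1 did (adjusted p = 0.0422). In the marker lists of other cell types LYZ, lysozyme (-1.07 ± 0.17), CD68 (-0.67 ± 0.12) and the fibroblast gene MFAP5 (-0.86 ± 0.11) fell, 2 of 10 leukocyte and 1 of 11 fibroblast markers. PTPRC (-0.07 ± 0.10), PECAM1 (-0.10 ± 0.10) and COL1A1 (-0.01 ± 0.08), defining genes of leukocytes, endothelium and fibroblasts, did not pass.

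Small non-coding RNAs were another class among the lower genes. They accounted for 19 of the 71 called lower, 7 of them from the SNORD116 cluster, imprinted box C/D RNAs without a known rRNA target, of which 15 of 20 copies fell. These classes were gathered after the values were seen, and SNORD116 copies are near-identical, so their number of calls is not a number of independent genes. Of 115 box C/D small nucleolar RNAs, which guide methylation of rRNA, 31 fell and 6 rose, and of 61 box H/ACA RNAs, which guide pseudouridylation, 19 fell and 1 rose. All 3 vault RNAs, 6 of 13 spliceosomal RNAs and 5 of 16 Cajal body RNAs fell. SNORA20 read 8.68, 8.66 and 10.09 at 3 weeks and 10.92, 10.94 and 11.44 at 1 week (log2 -1.95 ± 0.33), and VTRNA1-1 6.64, 6.09 and 7.19 at 3 weeks and 8.06, 8.14 and 9.01 at 1 week (log2 -1.76 ± 0.31). The groups did not overlap in either gene, as in all 283 called genes and in 25.6% of all genes. In both, however, the highest 1-week array was replicate 3 and the highest 3-week array was replicate 3.

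The spread of this class between arrays was wide. The mean of 192 small nucleolar and Cajal body RNAs was 6.95, 7.03 and 7.10 in Ctrl 3 weeks cells and 7.25, 7.24 and 7.51 in Ctrl 1 week cells. Ctrl 1 week replicate 3, the highest of the 6 arrays here, was the lowest for the very long mRNAs, and a link was not tested. Without Ctrl 1 week replicate 3 the number that fell was 19 for box C/D, 9 for box H/ACA and 1 for the vault RNAs, and without Ctrl 3 weeks replicate 1 it was 19, 9 and 2. In a fit of the 6 arrays alone it was 8, 4 and 1. The same mean lay between 6.75 and 7.01 on the 9 arrays of CSE cells at 3 weeks and between 7.18 and 7.41 on the 9 at 1 week. Cytosolic ribosomal protein genes moved slightly and with the same uncertainty: 19 of 35 fell with a median of -0.22, but 9 did so without Ctrl 1 week replicate 3, 12 without either Ctrl 3 weeks replicate 1 or 2, 2 in the fit of the 6 arrays alone and 0 in that fit with the replicate block.

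**Figure D4:**
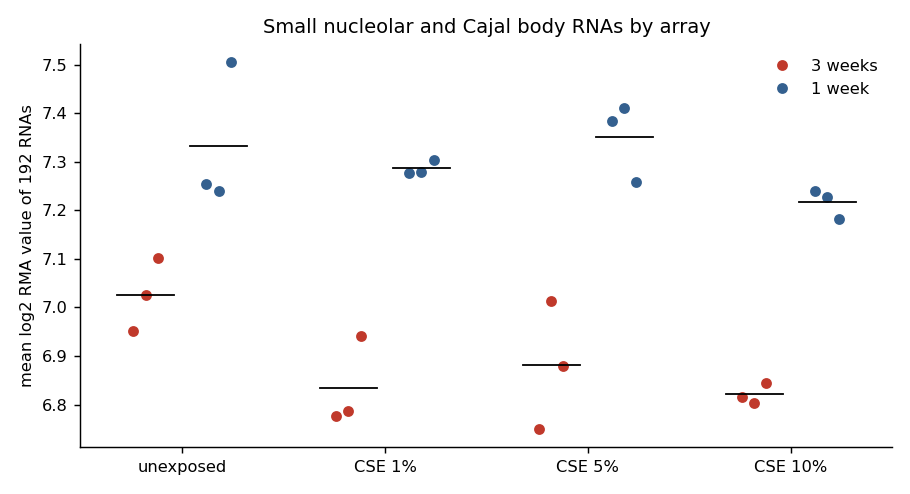
Mean log2 RMA value of 192 small nucleolar and Cajal body RNAs on each array at 3 weeks (left) and 1 week (right) for unexposed cells and each CSE concentration, with bars for group means. The unexposed arrays read 6.95 to 7.10 at 3 weeks and 7.24 to 7.51 at 1 week.

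In several other lists most members did not pass the test. Over all genes 6.52% rose and 5.65% fell. Of 40 oxidative phosphorylation genes 2 rose (5%) and 0 fell, and of 28 proteasome subunits 1 rose (3.57%) and 0 fell. Of 32 Wnt genes 1 rose (3.1%) and 0 fell, and of 26 TGF-beta signalling genes and targets 2 rose (7.69%) and 1 fell (3.85%). Of 23 antioxidant genes driven by NRF2 4 rose (17.4%) and 0 fell (median 0.06). Of 20 p53 targets 0 rose and 3 fell (15%, median -0.08). Of 17 glycolysis genes 2 rose (11.8%), and of 18 YAP targets 3 rose (16.7%) and 2 fell (11.1%).

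The time change was then set against the same change in cells that had received CSE, which shares no arrays with it. The difference in change (unexposed minus CSE) was called for 189 genes at 1% CSE, 1.03% of those tested, for 112 at 5%, 0.608%, and for 284 at 10%, 1.54%. At 1% CSE 155 of the called differences were above 0 and 34 below, at 5% 18 and 94, and at 10% 124 and 160. Of the 155 at 1% CSE 67 were cell cycle genes, against 0 of the 18 at 5% and 13 of the 124 at 10%. Across all genes the unexposed change correlated with that at 1%, 5% and 10% CSE at r = 0.496, 0.606 and 0.454, over genes that are not independent of each other.

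**Figure D5:**
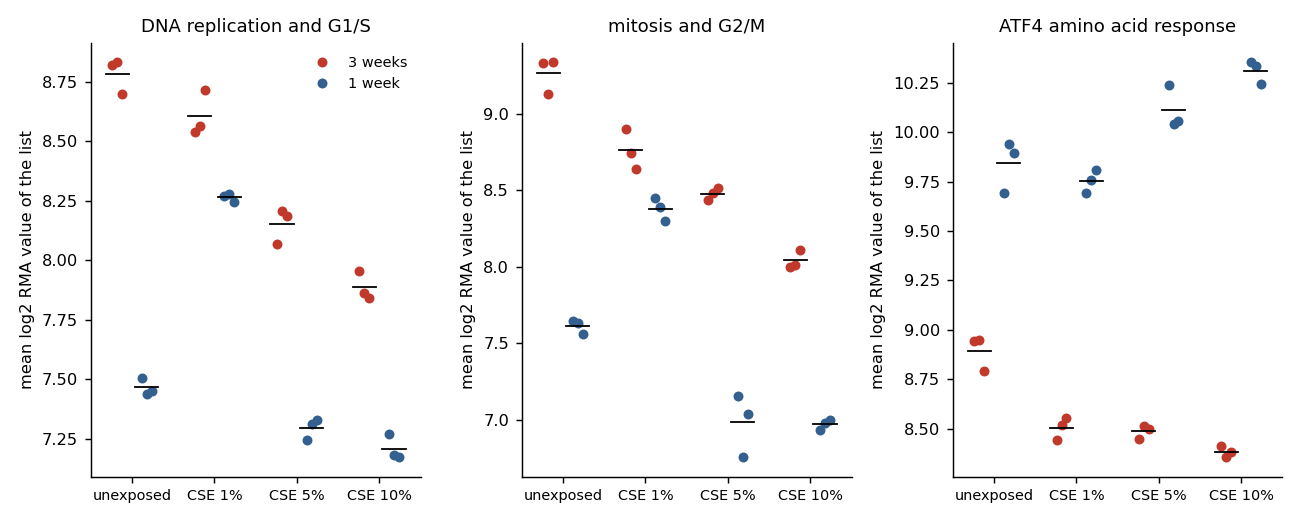
Mean log2 RMA value of the G1/S list (32 genes), the mitosis list (31) and the ATF4 amino acid list (22) on each array at 3 weeks (left, red) and 1 week (right, blue) by exposure, with bars for group means. Unexposed cells reached 8.78 in G1/S at 3 weeks and 7.47 at 1 week, whereas cells at 1% CSE read 8.61 and 8.27.

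The cell cycle lists show where the starting point differed. The median change of the G1/S list was 1.20 in unexposed cells and 0.31, 0.66 and 0.65 at 1%, 5% and 10% CSE, and that of the mitosis list was 1.60 in unexposed cells and 0.33, 1.53 and 1.05. At 1 week the mean level of the G1/S list was 7.47 in Ctrl cells, 8.27 at 1% CSE, 7.30 at 5% and 7.21 at 10%. At 3 weeks it was 8.78, 8.61, 8.15 and 7.89 in the same order. The mitosis list read 7.61, 8.38, 6.99 and 6.97 at 1 week and 9.26, 8.76, 8.48 and 8.04 at 3 weeks. On every array the cells at 1% CSE stood above the unexposed cells at 1 week in both lists, a difference that was not tested. The difference in change was called for 14 of 32 G1/S and 20 of 31 mitosis genes at 1% CSE, for 0 and 0 at 5%, and for 2 and 5 at 10%. The log2 fold change of CDC6 was 2.33 in unexposed cells and 0.39, 2.08 and 0.95 at 1%, 5% and 10% CSE. That of CDK1 was 2.21 in unexposed cells and 0.39, 2.30 and 1.86 with CSE. Because these genes were singled out for their unexposed change, their larger value there is not an independent result.

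The lists of calls overlapped in part. Of the 212 genes called higher in unexposed cells 13 were also called at 1% CSE (6.13%, and 28.3% of the list there), 129 at 5% (60.8% and 57.3%) and 86 at 10% (40.6% and 35.1%). Of the 71 called lower 41 were shared at 1% (57.7% and 27.7%), 35 at 5% (49.3% and 32.4%) and 37 at 10% (52.1% and 19.2%). In unexposed cells and at all 3 concentrations 9 genes were called higher, ARHGAP11B, CENPI, CIT, FASN, HELLS, HMGCS1, MKI67, RRM2 and TICRR, and 29 were called lower. HMGCS1 lost its call in unexposed cells without Ctrl 1 week replicate 3 (0.97). In unexposed cells and at no concentration 78 were called higher and 23 lower, which counts missed calls and not absent changes. At an adjusted p under 0.05, 109, 200 and 179 of the 212 rose at 1%, 5% and 10% CSE (51.4%, 94.3% and 84.4%). Over all genes 9.43%, 9.21% and 13.3% rose there. Of the 71 called lower, 64, 51 and 47 fell there by the same rule. At 10% CSE 2 of the 212 and 3 of the 71 were called in the opposite direction, and at 1% and 5% 0 were.

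The ATF4 list had a median below 0 in every arm, and a lower one with CSE. The median change was -0.80 in unexposed cells and -1.17, -1.57 and -1.87 at 1%, 5% and 10% CSE, and the difference in change was called for 2, 6 and 9 of its 22 genes. The mean level was 8.90 in Ctrl cells, 8.50, 8.49 and 8.38 in CSE cells at 3 weeks and 9.84 in Ctrl cells, 9.75, 10.1 and 10.3 in CSE cells at 1 week. PHGDH changed by -1.99 without CSE and by -2.72, -4.15 and -4.41 with it, whereas DDIT3 changed by -2.03 without CSE and by -1.90, -1.38 and -1.79 with it. The difference was 0.72 ± 0.30, 2.16 ± 0.30 and 2.42 ± 0.30 for PHGDH (adjusted p = 0.19, 4.55e-05 and 1.97e-06) and -0.12 ± 0.24, -0.65 ± 0.24 and -0.24 ± 0.24 for DDIT3 (adjusted p = 0.867, 0.156 and 0.654).

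For some genes the estimated fold change had one sign without CSE and the other sign with it. The changes with CSE are given here as estimates, without their adjusted p. The log2 fold change of CYP1B1 was -1.50 in unexposed cells and 0.65, 0.52 and 0.62 at 1%, 5% and 10% CSE, with differences of -2.15 ± 0.17, -2.02 ± 0.17 and -2.12 ± 0.17 (adjusted p = 3.54e-09, 1.46e-08 and 1.12e-09). That of MT1X was 1.29 without CSE and -0.82, -0.15 and -1.31 with it, and that of CYP3A5 -1.20 without and 0.22, 0.34 and 0.59 with it. MT1X lost its call in unexposed cells without Ctrl 3 weeks replicate 2 (1.11), as did CYP3A5 (-0.96). For CP it was -1.90 without CSE and -1.98 at 1%, but 0.76 at 5% and 1.25 at 10%. The fibrinogen gene FGB stayed negative in every arm. It stood at -0.98 without CSE and -2.85 at 1% CSE (difference 1.87 ± 0.29, adjusted p = 1.10e-04), and at -1.28 and -0.66 at 5% and 10%. SCD, which did not pass without CSE (0.27), had -0.08 at 1%, 1.57 at 5% and 1.71 at 10%.

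Control values at 5 weeks are given side by side only, since that group carries titles of 5 weeks and descriptions of 3 weeks and a change after 3 weeks would share the 3-week arrays. In Ctrl cells at 1, 3 and 5 weeks the G1/S list averaged 7.47, 8.78 and 8.66 and the mitosis list 7.61, 9.26 and 8.52. The ATF4 list averaged 9.84, 8.90 and 8.77. CYP1B1 averaged 9.69, 8.19 and 7.23, MT1X 8.58, 9.86 and 10.78, and CDK1 6.51, 8.72 and 7.15. The mean of the 192 small nucleolar and Cajal body RNAs was 7.72, 7.40 and 7.43 on the 5-week arrays, above each 3-week array. The full list of 44 genes with very long mRNAs, cell cycle members included, averaged 8.28, 8.63 and 7.20 at 1, 3 and 5 weeks. Its low level on the 5-week arrays limits what their values show, and its part in them was not tested.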

How the data were processed

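Total RNA of A549 cultures was hybridized to 36 Affymetrix whole-transcript arrays. The authors background-corrected, log2 transformed and RMA-normalized the raw intensities with the oligo package, and the deposited log2 values of 33297 transcript clusters were used as they stood. R 2.11.0 with RMA and limma is named in the notes of the submitters, and these sources give no genome build. After RMA all arrays have nearly equal distributions, so a change common to all genes would be lost. Sample groups came from the titles, since the time field of the controls reads only Ctrl.

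Of the clusters 19460 carry a single symbol in the platform annotation, 1754 several and 12083 none. For the 769 genes with several clusters the one with the highest mean over all arrays was taken. A mean for each of 12 groups was fitted over all 36 arrays with limma 3.58.1 in R 4.3.3 (24 residual and 3.91 prior degrees of freedom, prior proportion 0.01 for B), and p-values were adjusted by Benjamini-Hochberg over all clusters. The median standard error of a log2 fold change was 0.11, and 3 arrays a group limit the precision. P-values rest on the spread among these cultures, which may be partly technical. The fit was checked on simulated data.

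Named genes were up to 15 called genes per direction with the largest changes and no overlap between groups, up to 5 members per list and up to 5 per direction of each difference by smallest p, the genes the study names and the markers. Another 60 of the 158 genes, chosen as members of the complexes described, were added after their values were seen. The members and lists were chosen with earlier results of these data known, and 23 further lists and RNA classes after the values were seen. Motifs were searched in promoters of 300 bases. Alternatives were the arrays in the fit, the replicate block, the normalization, a filter on dim clusters, the variance model, the threshold, the cluster rule and each array left out.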

Additional observations from a re-analysis of the deposited data

Results flagged for a closer look

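The results below stood out because the change between 1 and 3 weeks differed between unexposed and CSE cells by more than 1 on the log2 scale with B above 0 in limma's test of that difference. Of the 158 genes given with values, 49 met this at 1% CSE, 21 at 5% and 36 at 10%, and each value is the unexposed change minus the CSE change. Over all genes tested the shares were 1.03%, 0.608% and 1.54%. Many of the 158 were picked by their unexposed change or by these same differences, so their counts are not an independent result. No test for single outlying values was run within groups of 3 arrays.

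Against 1% CSE the difference was called for 14 of 32 G1/S genes, 13 of 29 licensing and helicase genes, 3 of 12 nucleotide supply genes and 1 of 21 polymerase and clamp loader genes. In the origin and helicase genes the difference was 1.13 for TICRR, 1.94 for CDC6, 1.40 for ORC1, 1.71 for GINS1, 1.91 for GINS2 and 1.21 for CDC45. Its value was 1.02 for MCM3, 1.11 for MCM4, 1.08 for MCM5 and 1.03 for MCM6. Among nucleotide supply and copying genes it was 1.42 for RRM2, 1.23 for TYMS, 1.28 for TK1 and 1.30 for POLE2. S phase and repair genes had 2.09 for ESCO2, 1.73 for DTL, 1.09 for BRCA1, 1.15 for FANCI and 2.55 for H1-5, the linker histone.

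In mitosis the difference against 1% CSE was called for 20 of 31 genes of the mitosis list, 8 of 31 kinetochore genes and 2 of 13 mitotic kinesins. The difference was 1.14 for MKI67, 1.50 for MYBL2, 1.47 for FOXM1, 1.82 for CDK1 and 1.38, 1.35, 1.33 and 1.41 for the cyclin genes CCNE2, CCNA2, CCNB1 and CCNB2. It was 1.82 for KIF20A, 1.64 for KIF11, 1.64 for BUB1, 1.12 for PLK1, 1.41 for AURKA, 1.37 for TOP2A and 1.33 for STMN1.

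Outside the cell cycle the differences against 1% CSE had both signs. They were 2.11, 1.56 and 1.70 for the metallothioneins MT1X, MT1F and MT2A, 1.44, 1.87 and 1.37 for the fibrinogen genes FGA, FGB and FGG, 1.30 for PSAT1, 1.24 for TFF1 and 1.15 for NR4A1. Below 0 stood CYP1B1 (-2.15), TIPARP (-1.29), CYP3A5 (-1.42), TCN1 (-1.11), DHRS9 (-1.75) and FN1 (-1.39).

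Against 5% CSE no cell cycle gene given here was among them. The difference was 2.16 for PHGDH, 1.44 for PSAT1, 1.96 for ALDH1L2, 1.13 for SHMT2, 1.44 for MT1X and 1.37 for NR4A3. Values below 0 were -1.30 for SCD, -2.02 for CYP1B1, -1.03 for TIPARP, -1.54 for CYP3A5, -2.66 for CP, -2.01 for TCN1, -1.28 for DHRS9 and -1.66 for ABI3BP. The surface and matrix genes below 0 were TSPAN1 (-1.79), AQP3 (-1.16), MMP2 (-1.27), MMP7 (-1.24) and ITGB6 (-1.04), beside EGLN3 (-1.15) and LYZ (-1.34).

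Against 10% CSE the cell cycle genes were CDC6 (1.37), MYBL2 (1.17), KIF20A (1.12), BUB1 (1.02), CCNE1 (1.10), CDK2 (1.20), AURKA (1.20) and H1-5 (1.54). The amino acid genes, which fell by more with CSE, had 2.42 for PHGDH, 1.26 for STC2, 1.14 for CHAC1, 1.58 for PSAT1, 2.01 for ALDH1L2, 1.32 for SHMT2 and 1.26 for MTHFD2. Lipid genes had -1.14 for FADS2, -1.44 for SCD, -1.14 for ABCA1 and -1.09 for ABCG1, and the metallothioneins MT1X, MT1F and MT2A 2.60, 1.77 and 1.79. Also above 0 were HBEGF (1.19), NR4A3 (1.53) and NR4A1 (1.09). Below 0 were CYP1B1 (-2.12), CYP3A5 (-1.79), CP (-3.15), TCN1 (-1.69), ABI3BP (-1.99), TSPAN1 (-2.28), AQP3 (-1.57), EGLN3 (-1.83), MMP7 (-1.14), ACTA2 (-1.06) and LYZ (-1.47).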

How the results depend on the processing

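The 212 higher and 71 lower calls, and the 189, 112 and 284 called differences against 1%, 5% and 10% CSE, stayed within 1.5 times under every alternative run. Leaving out single arrays gave 194 to 218 higher and 60 to 78 lower genes, and 175 to 216, 88 to 157 and 241 to 362 differences. The highest counts at 5% and 10% CSE, 157 and 362, came without Ctrl 1 week replicate 3. Centring each array on housekeeping genes shifted all changes by -0.11 and gave 175 higher and 99 lower. Of the 88 called genes given with values 17 lost the call with at least 1 array left out, 10 of them without Ctrl 1 week replicate 3 and 10 without Ctrl 3 weeks replicate 2, and 8 of the 131 with an adjusted p under 0.05 no longer passed with at least 1 array left out. With the replicate block the counts were 210 higher and 70 lower in the fit of all 36 arrays and 200 and 67 in the fit of the 6 arrays. Deviations of same-numbered arrays from their group means correlated at 0.305, -0.083 and -0.026, and not every array correlated best with its own number. With means of 3 arrays this check cannot show whether the replicate numbers pair the arrays. RAB7A, a housekeeping gene at 0.25 on the log2 scale, read -0.17 (adjusted p = 0.502) when its clusters were averaged.

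The choice of arrays in the fit changed several lists, and the cause was not tested. In the fit of the 6 arrays alone 49 genes were lower, 2 of the 19 ribosomal protein genes, 4 of 7 hypoxia genes, 3 of 5 liver X receptor targets and 2 of 5 EGF receptor and ligand genes were among those that fell, all of them also among the genes that fell in the fit of all arrays, and 13 ATF4 genes fell, or 11 with the replicate block. With the replicate block in that fit the count was 1 of 8 for fatty acid genes, 6 of 13 for cholesterol genes, 12 of 19 for polymerases, 3 of 7 for hypoxia genes, 2 of 5 for liver X receptor targets, 1 of 5 for EGF receptor and ligand genes, 0 of 19 for ribosomal protein genes, 4 of 7 for plasma protein genes, 5 of 10 for the E2F and retinoblastoma families and 4 of 9 for tRNA synthetases. The G1/S count was 32 with each array left out, and the mitosis count lay between 29 and 31. Groups of 3 arrays, with no detection calls, limit what can be said of low values.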
